A study of Homo sapiens with 6 samples.

Results

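The histone genes of the table were the 22 of 16199 rows whose symbol names a replication-dependent core histone, a linker histone or a histone variant. Members were chosen by symbol, under a rule set with earlier results of these data known. The core class took H2AC, H2BC, H3C or H4C followed by a number, and the linker class H1 followed by a number. For the variants the rule named H2AX, H2AZ, H2AJ, H2AW, H2AZ1, H2AZ2, H3-3A, H3-3B, MACROH2A1 and MACROH2A2. This gave 10 core rows (1 of H2A, 7 of H2B, 2 of H4 and 0 of H3), 4 linker rows and 8 variant rows. The counts are of RNA crosslinked to Ago2, the Argonaute protein that carries a microRNA to its target, and recovered by iCLIP. Crosslinking used 2 exposures of 150 mJ/cm2 at 254 nm. Libraries from control IgG were not used here, so no background of the pull-down is given. The cells were the human embryonic stem cell line H1, from 2 dishes of 15 cm per sample, and every group had been expanded for 10 days without doxycycline. The 3 genotypes of Dicer, the enzyme that cuts microRNA precursors, had 2 libraries each: wild-type, hemizygous for the S1344L substitution (written pm/fs in the protocol) and homozygous for it (pm/pm). The number of edited clones behind each genotype is not given in the sources used here. Separate cultures are not stated either, and the spread behind each p-value, which is that of these libraries alone, may be technical.

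Histones package DNA into nucleosomes: H2A, H2B, H3 and H4 form the core particle, and H1 binds the linker DNA where it enters and leaves. Replication-dependent genes lie in clusters, are transcribed in S phase, and make messages that end in a stem-loop bound by SLBP in place of a poly(A) tail. Most variant genes lie outside the clusters, are made through the cell cycle and give polyadenylated messages, while H2AX also makes a stem-loop message in S phase. H1-10, although counted here with the linker class, is of that second kind. Embryonic stem cells divide fast and spend much of their cycle in S phase, and their chromatin is known to be low in macroH2A, which rises in differentiated cells.

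The libraries held 38.2 M to 52.9 M counts. The table's lowest row total was 132 counts over the 6 libraries, so histone rows under that total were not analysed here. All 22 members passed the filter on low counts. In RefSeq (GRCh38.p14), 63 symbols follow the naming of the core class and 10 of them had a row, against all 8 symbols of the variant class. Pluripotency markers were counted for 12 of 12 genes, with a summed level of 8207 to 9557 CPM (counts scaled to 1000000 per library with TMM factors). The fibroblast and stromal list had rows for 7 of 10 genes and summed to 787 to 1136 CPM, with no row for COL3A1, LUM or DCN. The neuroectoderm list had 6 of 8 and summed to 428 to 589 CPM, with no row for PAX6 or SOX1. The mesendoderm list had 2 of 8, with no row for TBXT, EOMES, SOX17, GATA6, GATA4 or FOXA2. In a pull-down from bulk cells, a smaller share of cells with an RNA and less of it per cell cannot be told apart. Whether a count follows Ago2 binding or transcript level was not tested.

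The upstream sequences set the classes side by side. They are shown because a divergent pair (H2AC6 and H2BC4) shares a single stretch, because H2BC9 varied most among the members, because H2BC21 had the most counts of the core class, and because H2AZ1 and MACROH2A1 carry the variant results below. Each is RefSeq sequence of GRCh38.p14, 5′ to 3′ toward the start of the named gene, without transcribed bases of that gene. Capitals mark the letters of 3 motifs on either strand: the TATA box TATAAA, the CCAAT box, and the octamer ATTTGCAT known from H2B promoters. None of the 3 contains another, although their ends can share letters. The 245 bases between the starts of H2BC4 and H2AC6 lie at chr6:26123927-26124171 and are written on the plus strand. The 250 bases before H2BC9 lie at chr6:26251364-26251613, plus strand. The 235 bases before H2BC21, cut where the neighbouring H2AC20 begins, lie at chr1:149886683-149886917, minus strand. The 250 bases before H2AZ1 lie at chr4:99950276-99950525, minus strand, and overlap the divergent transcript H2AZ1-DT. Those before MACROH2A1 lie at chr5:135399888-135400137, minus strand.
H2AC6 and H2BC4: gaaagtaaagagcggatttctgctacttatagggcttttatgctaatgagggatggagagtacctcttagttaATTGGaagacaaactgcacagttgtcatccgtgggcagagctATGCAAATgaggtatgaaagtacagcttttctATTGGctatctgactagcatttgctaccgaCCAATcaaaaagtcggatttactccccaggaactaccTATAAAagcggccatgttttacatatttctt
H2BC9: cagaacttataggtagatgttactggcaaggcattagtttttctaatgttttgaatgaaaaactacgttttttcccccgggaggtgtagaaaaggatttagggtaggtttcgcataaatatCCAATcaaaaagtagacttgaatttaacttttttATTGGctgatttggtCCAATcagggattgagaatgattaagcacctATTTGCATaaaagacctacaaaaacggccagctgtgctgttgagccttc
H2BC21: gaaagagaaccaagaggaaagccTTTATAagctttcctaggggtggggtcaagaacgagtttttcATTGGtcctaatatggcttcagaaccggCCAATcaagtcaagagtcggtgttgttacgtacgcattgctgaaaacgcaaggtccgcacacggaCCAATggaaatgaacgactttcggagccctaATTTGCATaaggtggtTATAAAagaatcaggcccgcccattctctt
H2AZ1: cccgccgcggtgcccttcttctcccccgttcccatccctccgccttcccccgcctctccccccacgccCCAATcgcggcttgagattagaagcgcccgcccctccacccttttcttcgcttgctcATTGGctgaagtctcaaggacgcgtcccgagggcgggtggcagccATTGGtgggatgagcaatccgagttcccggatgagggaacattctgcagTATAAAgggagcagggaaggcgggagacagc
MACROH2A1: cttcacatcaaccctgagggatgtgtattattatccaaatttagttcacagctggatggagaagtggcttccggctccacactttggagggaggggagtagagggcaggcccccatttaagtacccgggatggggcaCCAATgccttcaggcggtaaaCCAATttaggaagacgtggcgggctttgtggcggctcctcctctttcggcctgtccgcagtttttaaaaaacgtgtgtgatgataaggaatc

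Over the 250 bases before the start, 21 of the 22 members had sequence in the RefSeq table. The octamer ATTTGCAT was present before 6 of 10 core genes (H2AC6, H2BC4, H2BC6, H2BC9, H2BC12 and H2BC21), before 0 of 3 linker genes and before 1 of 8 variant genes, H3-3B. Among 27305 genes with such sequence, 1.67% held it. TATAAA was present before 6 of 10 core genes, 2 of 3 linker genes and 3 of 8 variant genes, against 11.2% of all genes. CCAAT or its complement was present before 9 of 10 core genes, all but H4C8, and before 7 of 8 variant genes, all but MACROH2A2, against 33.0% of all genes. H2AC6 and H2BC4 share 1 stretch, so its 1 octamer, its 1 TATAAA and its CCAAT matches each count for both genes. Among the other 48 core symbols of RefSeq with sequence, 20 held the octamer, 33 TATAAA and 39 CCAAT. These are matches of letters and not tested sites.

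The variant rows held most of the histone counts, from 65756 of 86123 in homozygous replicate 2 to 81126 of 100835 in wild-type replicate 1. H3-3B and H3-3A, which encode the same replacement histone H3.3, stood at a mean over the 6 libraries of 459 and 407 CPM, and H2AZ1 and H2AZ2, which encode H2A.Z, at 377 and 146 CPM. H2AX, whose protein is phosphorylated around DNA breaks, stood at 81.3 CPM, MACROH2A1 at 46.6, H2AJ at 37.6 and MACROH2A2 at 5.20 CPM. H3-3B had more counts than 98.4% of all rows. The 8 variant rows together took 0.144% to 0.166% of a library's counts. The lowest of these was 0.1443% (95% exact binomial interval 0.1431% to 0.1455%, hemizygous replicate 1), and such intervals cover counting error only. H3-3A and H3-3B together made up 51.4% to 58.7% of the variant counts and the H2A.Z pair 31.5% to 37.5%.

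Among the linker genes H1-10, which lies outside the histone clusters, stood at a mean of 176 CPM. H1-2 and H1-3, the linker genes of the chromosome 6 cluster, stood at 2.79 and 0.642 CPM. H1-10 overlaps the antisense gene H1-10-AS1, which has a row of its own, and the use of strand in counting is not given in the sources used here.

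The replication-dependent core class was near the bottom of the table. Its 10 rows ranged from a mean of 0.656 CPM (H4C9) to 3.29 CPM (H2BC21), and their totals over the 6 libraries from 176 to 886 counts. H2BC21 had more counts than 22.9% of all rows and H4C9 more than 0.759%. H2AC6 stood at 3.29 CPM, H2BC9 at 2.38, H2BC12 at 2.29, H4C8 at 1.80, H2BC5 at 1.04 and H2BC15 at 0.924 CPM. H2BC6 and H2BC4 stood at 0.769 and 0.676 CPM. The 10 rows summed to 0.00148% (95% exact binomial interval 0.00138% to 0.00159%) of counts in wild-type replicate 1 and to at most 0.00205% (0.00191% to 0.00220%) in wild-type replicate 2. For every 1000 counts in variant rows, 9.68 to 12.8 fell in core rows. H2B genes held 64.2% to 70.8% of the core counts. Core proteins of a family are near-identical and the gene sequences are alike, so how the authors' counting divided reads among copies is uncertain. H4C9 lies inside the RefSeq span of H2BC12, and these 2 rows may share reads.

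**Figure D1:**
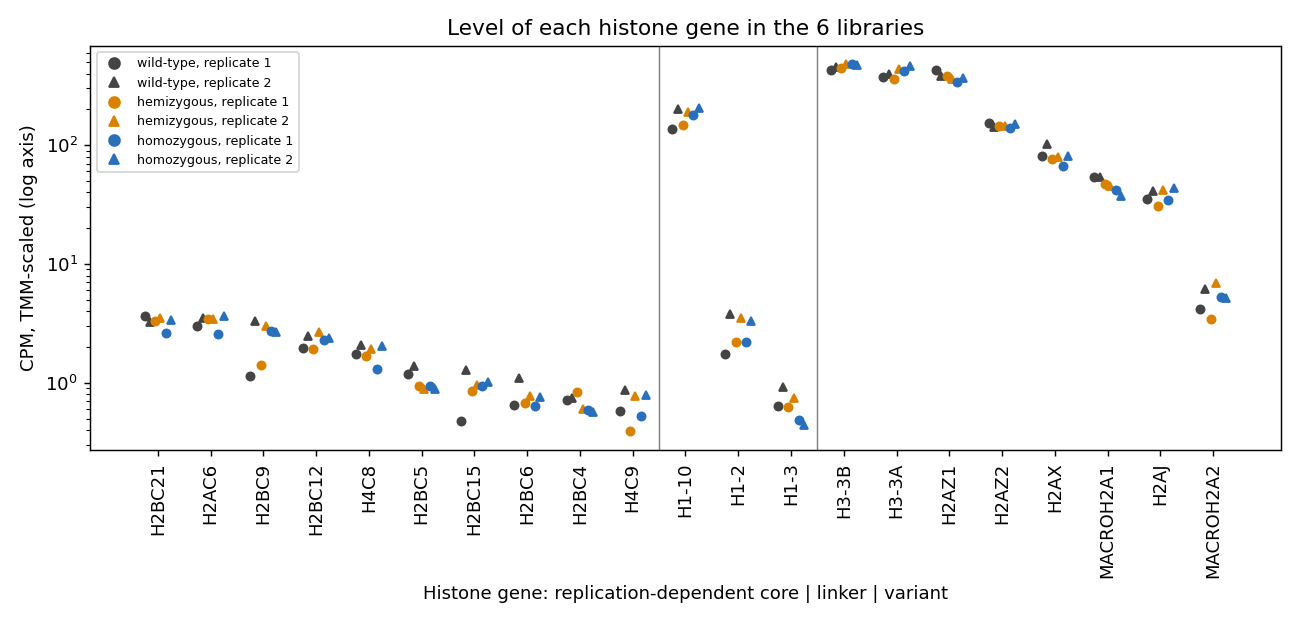
Level of 21 histone genes in CPM on a log axis, 1 point per library, with the core, linker and variant classes separated by lines and genes ordered by mean within a class. The core genes have means from 0.656 to 3.29 CPM, while H1-10 and all variants but MACROH2A2 have means of at least 37.6 CPM.

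Raw counts favour long messages, so levels between genes were also set per length for members with 1 RefSeq transcript and a span under 2500 bases, introns included. H2AZ1 stood at 172 CPM per kilobase of span, H1-10 at 116 and H2AX at 51.1. The core genes of this set reached at most 6.34 CPM per kilobase (H2AC6, chr6:26124172-26124690), followed by 5.16 for H2BC9 and 4.40 for H4C8. H1-2 stood at 3.82 and H1-3 at 0.827. Per length as by CPM, the 2 variants with a value (H2AZ1 and H2AX) and H1-10 stood above every core gene of the set, while H1-2 and H1-3 did not. The order within the core class changed: H2BC21, first by CPM, stood at 1.48 CPM per kilobase. RefSeq spans of H2BC4, H2BC5 and H2BC12 are 10757, 13229 and 8566 bases, since each has spliced transcripts, and no per-length value was made for them.

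Core and linker genes had higher median ratios between libraries than the variants had. The ratio of the highest to the lowest of the 6 libraries had a median of 1.57 in the core class. It was 1.79 in the linker class and 1.35 in the variant class. Counting error in the lowest library was 9.13% to 25.8% for core genes, 10.8% for H1-2 and 23.6% for H1-3. It was 1.33% for H1-10, 8.74% for MACROH2A2 and 0.763% to 2.92% for the other variants. H1-2 and H1-3 had ratios of 2.20 and 2.08, and MACROH2A2 had one of 2.03. The ratio of H1-10 lay within the range of the variants. The part of counting error in these ratios was not tested. H2BC9, an H2B gene of the chromosome 6 cluster, stood at 1.14 and 3.33 CPM in wild-type replicates 1 and 2, at 1.41 and 3.04 in hemizygous and at 2.71 and 2.68 in homozygous libraries. The 2 low libraries were both replicate 1, and both homozygous libraries lay between these and the replicate 2 libraries of the other genotypes. H1-2 stood at 1.74 and 3.81 CPM in wild-type, 2.22 and 3.49 in hemizygous and 2.20 and 3.30 in homozygous libraries, so that all 3 replicate 1 libraries were below all 3 replicate 2 libraries. H1-10 stood at 137 and 199 CPM in wild-type, 147 and 189 in hemizygous and 179 and 206 in homozygous libraries, again with every replicate 1 below every replicate 2. MACROH2A2 stood at 4.15 and 6.19, 3.42 and 6.95, and 5.27 and 5.22 CPM in the same order. Its homozygous libraries lay between those of the other genotypes.

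The direction by replicate number was shared by most members. Replicate 1 was the lower library for 9 of 10 core genes in wild-type, 8 of 10 in hemizygous and 7 of 10 in homozygous cells, where 49.2%, 50.7% and 48.9% of all genes were lower. The median difference of core genes (log2 CPM, replicate 1 minus replicate 2) was -0.30, -0.17 and -0.16, and that of linker genes -0.52, -0.30 and -0.16. The variants had medians of -0.08, -0.08 and -0.12. The list of 20 S phase genes (MCM helicase subunits, PCNA, cyclin E and others) had medians of 0.18, 0.17 and 0.13, with 4, 4 and 7 of its 20 genes lower in replicate 1. The medians of core histone rows and of S phase genes thus lay on opposite sides of 0 in all 3 genotypes; the difference was not tested. Fibroblast and stromal markers were also higher in replicate 1 in wild-type and hemizygous cells, with medians of 0.63 and 0.60. In homozygous cells their median was 0.05, and their sum was 787 CPM in replicate 1 and 856 in replicate 2. The part of cell composition or of library preparation in these differences was not tested.

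**Figure D2:**
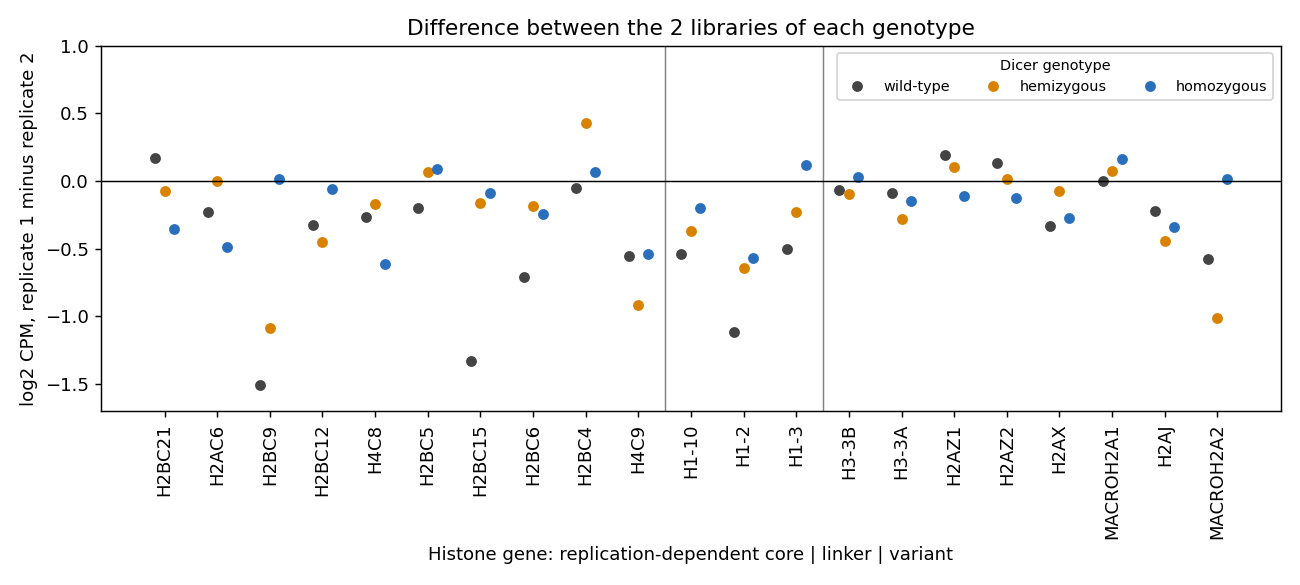
Difference in log2 CPM between replicate 1 and replicate 2 of each genotype, 1 point per gene and genotype, with the classes separated by lines. Most points lie below 0, the lowest being H2BC9 in wild-type at -1.51. H3-3B, H2AZ1, H2AZ2 and MACROH2A1 lie at most 0.19 from 0 in all 3 genotypes.

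The first question is whether histone genes differ between hemizygous and wild-type cells. MACROH2A1, which encodes the macroH2A1 variant with its large non-histone domain, stood at 54.2 and 54.3 CPM in wild-type and at 47.4 and 45.0 CPM in hemizygous libraries. Both hemizygous values lay below both of wild-type, and the log2 fold change was -0.23 (SE 0.13). In this comparison 6 of 6 neuroectoderm markers were above 0 (median 0.49, 3 with an unadjusted p under 0.05) and 10 of 12 pluripotency markers (median 0.15), and the fibroblast and stromal median was -0.04. The part of these markers in the histone differences was not tested. H2BC5 stood at 1.20 and 1.38 CPM in wild-type and at 0.939 and 0.892 CPM in hemizygous libraries. Its log2 fold change was -0.49 (SE 0.29), on 36 to 62 counts per library. H2AX stood at 80.8 and 102 CPM in wild-type and 76.0 and 80.0 in hemizygous libraries, which gave -0.23 (SE 0.17) on the log2 scale, and -0.04 without wild-type replicate 2. H2AX overlaps DPAGT1, which also has a row. The members with the smallest p on the higher side included H3-3B at 0.07 (SE 0.12) and H2AC6 at 0.09 (SE 0.27), whose groups overlapped.

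None of these differences passed the test. edgeR's quasi-likelihood test called 0 of 22 members, against 0% of all 16199 genes, and the lowest adjusted p of a member was 1.00. At an unadjusted p under 0.05 there were 0 members, where 0.870% of all genes passed. Libraries did not overlap for 0 members on the higher and 3 on the lower side, where the shares of all genes were 8.13% and 9.21% (17.3% in either direction). Of the 22 log2 fold changes 9 were above 0 and 13 below, with a median of -0.02 beside -0.00 over all genes. By class the medians were -0.02 for core, 0.03 for linker and -0.05 for variant genes. DESeq2 also called 0 members, against 0.0432% of all genes, and limma-voom 0 against 0%.

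The same question in homozygous cells gave the widest differences. MACROH2A1 stood at 41.7 and 37.2 CPM in homozygous libraries, below all 4 libraries of the other genotypes, with a mean of 39.5 ± 3.17 CPM (SD, n = 2) against 54.2 ± 0.0443 in wild-type. An SD of 2 libraries is a poor estimate, and counting error alone was 2.57% in the lowest library (homozygous replicate 2). The log2 fold change of MACROH2A1 was -0.46 (SE 0.13), and edgeR's quasi-likelihood test gave it an unadjusted p of 0.00960, with an adjusted p of 1.00 over all genes. It was the only member with an unadjusted p under 0.05, which 2.69% of all genes reached. The fibroblast and stromal markers summed to 787 and 856 CPM in homozygous libraries, against 1136 and 961 in wild-type and 1080 and 886 in hemizygous ones. THY1 had the largest part of these sums, at 333 and 394 CPM in homozygous and 420 and 468 in wild-type libraries. All 7 measured markers were below 0 against wild-type, with a median of -0.39. Pluripotency markers summed to 9207 and 8781 CPM in homozygous against 8368 and 8207 in wild-type libraries. Of these 12 markers 8 were above 0 and 4 below, with a median of 0.08. Of 6 neuroectoderm markers 3 had homozygous libraries wholly above wild-type and 3 wholly below (median 0.10). The shares of all genes were 14.2% and 13.6%. The part of these markers in the MACROH2A1 difference was not tested. H1-3 stood at 0.636 and 0.921 CPM in wild-type and 0.485 and 0.443 in homozygous libraries, a log2 fold change of -0.73 (SE 0.36) on 18 to 36 counts per library. H2AX stood at 67.4 and 81.6 CPM in homozygous libraries, overlapping wild-type, with a log2 fold change of -0.29 (SE 0.17), which was -0.10 without wild-type replicate 2 and -0.44 without replicate 1. H2BC5 stood at 0.947 and 0.886 CPM (log2 fold change -0.49, SE 0.29). H2BC4 stood at 0.595 and 0.566 against 0.713 and 0.742 CPM in wild-type (-0.32, SE 0.33), on 23 to 37 counts per library.

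On the higher side stood both genes of replacement H3. H3-3A stood at 418 and 463 against 372 and 395 CPM (0.20, SE 0.15), and H3-3B at 477 and 468 against 431 and 452 CPM (0.10, SE 0.12). H1-10 stood at 0.19 (SE 0.22) with overlapping groups, and at -0.04 without wild-type replicate 1. H2AZ1 stood at 342 and 369 CPM in homozygous against 432 and 378 in wild-type libraries, and its log2 fold change was -0.19 (SE 0.13). Groups did not overlap for 3 members on the higher side (H3-3A and H3-3B among them) and 5 on the lower (MACROH2A1, H1-3, H2BC4, H2BC5 and H2AZ1), where the shares of all genes were 14.2% and 13.6% (27.9% in either direction). edgeR called 0 of 22 members against 0% of all genes, DESeq2 called 0 against 0.0617%, and limma-voom 0 against 0%. The median log2 fold change was -0.16 in core, 0.09 in linker and -0.00 in variant genes, and -0.00 over all genes.

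**Figure D3:**
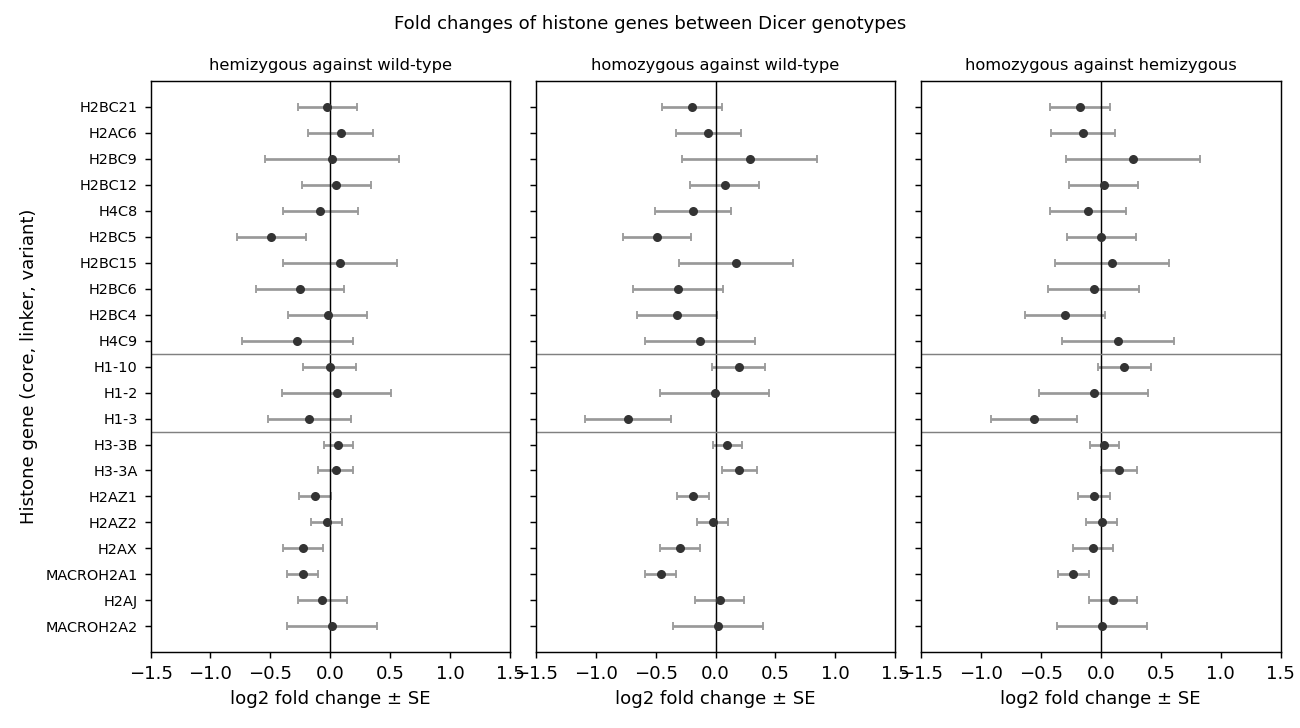
log2 fold change with its standard error for 21 histone genes in the 3 comparisons of the edgeR fit, with core, linker and variant classes separated by lines. MACROH2A1 lies at -0.23, -0.46 and -0.23, and most bars reach or cross 0.

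Between the mutant genotypes, MACROH2A1 was again the member with the smallest p, with a log2 fold change of -0.23 (SE 0.13) in homozygous against hemizygous libraries, followed by H1-3 at -0.56 (SE 0.36). H2BC4 stood at -0.30 (SE 0.34), from 0.834 and 0.607 CPM in hemizygous libraries to 0.595 and 0.566 in homozygous ones. These rest on 23 to 32 counts per library, and counting error in the lowest was 20.9%, wider than the gap between the groups. H3-3A and H1-10 stood at 0.15 (SE 0.15) and 0.20 (SE 0.22) with overlapping groups. Libraries did not overlap for 0 members on the higher and 3 on the lower side (MACROH2A1, H1-3 and H2BC4), where the shares of all genes were 11.0% and 10.4% (21.4% in either direction). edgeR called 0 of 22 members against 0% of all genes, and 0 members had an unadjusted p under 0.05, which 0.765% of all genes had. DESeq2 called 0 members against 0.0617% of all genes, and limma-voom 0 against 0%. The fibroblast and stromal list had a median of -0.48 here, with 6 of 7 markers below 0, and the neuroectoderm list one of -0.32, with 5 of 6 below 0 and 5 of 6 not overlapping. Their part was likewise not tested. The 3 comparisons share libraries, so the values of MACROH2A1 in them are not independent of each other.

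When the fit took the replicate number as a block, it still called 0 members by edgeR in each comparison, against 0.00617% of all genes in hemizygous against wild-type, 0% in homozygous against wild-type and 0.00617% between the mutants. The members with an unadjusted p under 0.05 in that fit were MACROH2A1 in all 3 (0.0422 in hemizygous and 0.00161 in homozygous against wild-type, 0.0440 between mutants, with adjusted p of 0.999, 0.316 and 0.573) and H2AX in homozygous against wild-type (0.0221, adjusted p = 0.377). Of all genes, 3.80%, 12.0% and 8.20% had such a p in that fit. Within replicate 1 the MACROH2A1 difference was -0.19 in hemizygous and -0.38 in homozygous against wild-type, and within replicate 2 it was -0.27 and -0.54. Leaving out each library in turn kept it between -0.54 and -0.38 in homozygous and between -0.26 and -0.19 in hemizygous against wild-type cells.

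A ratio of the H2A.Z genes needs no scaling between libraries. H2AZ1 had 2.79 and 2.68 counts per H2AZ2 count in wild-type, 2.64 and 2.48 in hemizygous and 2.46 and 2.43 in homozygous libraries, so none of the 3 genotypes overlapped another. The difference was -0.18 in hemizygous and -0.29 in homozygous against wild-type, and -0.11 between mutants. By exact two-sided permutation over libraries each difference had p = 0.333 (n = 2 each), the smallest that 2 against 2 allows. This ratio is given after its values were seen, as the one of 9 histone ratios with no overlap in any comparison. Groups of 2 that do not overlap always give this p, so it follows from that choice and says nothing further. Against wild-type, H2AZ2 itself stood at -0.03 (SE 0.13) in hemizygous and -0.02 (SE 0.13) in homozygous libraries on the log2 scale. H3-3B per H3-3A was 1.16 and 1.14 in wild-type, 1.25 and 1.10 in hemizygous and 1.14 and 1.01 in homozygous libraries. MACROH2A1 per MACROH2A2 ran from 6.48 in hemizygous replicate 2 to 13.9 in hemizygous replicate 1, so 1 genotype held both extremes of this ratio.

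**Figure D4:**
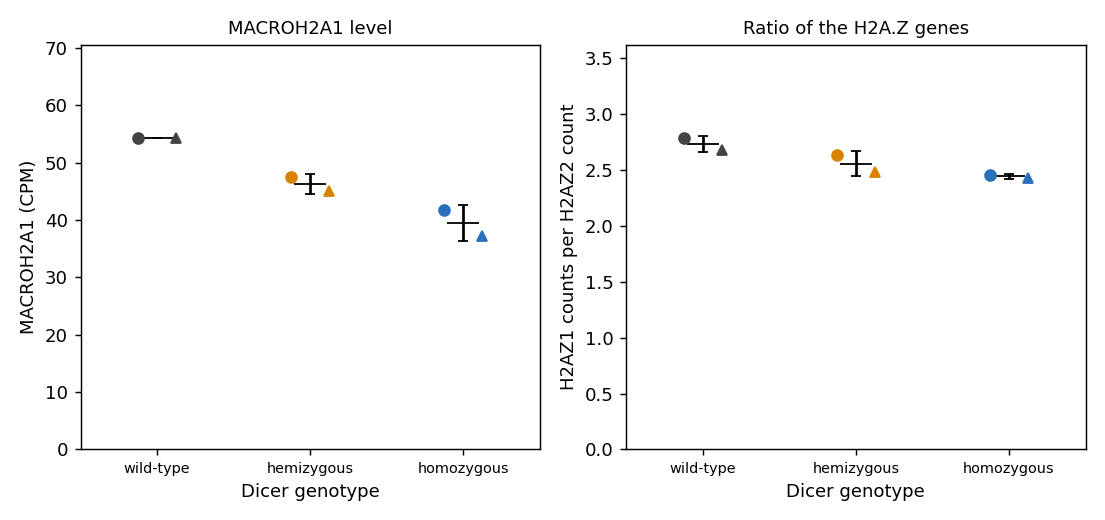
Left, MACROH2A1 level in CPM; right, counts of H2AZ1 per count of H2AZ2. Points are libraries (circle replicate 1, triangle replicate 2), and bars are the mean and SD of 2 libraries per Dicer genotype. MACROH2A1 goes from 54.2 and 54.3 CPM in wild-type to 41.7 and 37.2 in homozygous libraries, and the ratio from 2.79 and 2.68 to 2.46 and 2.43.

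Taken as classes, the histones differed between genotypes by less than the widest gap between libraries of a genotype. Wild-type libraries had a core sum of 17.6 ± 3.48 CPM (SD, n = 2 here and below), hemizygous ones 17.1 ± 2.18 and homozygous ones 16.7 ± 2.10 CPM. In each genotype replicate 1 was the lower, at 15.1 to 15.5 CPM against 18.2 to 20.1 in replicate 2. The variant class summed to 1567 ± 4.27, 1541 ± 66.6 and 1572 ± 66.1 CPM. Exact two-sided permutation of log2 summed CPM gave p = 1 for the core class in both mutants against wild-type, 0.667 for the linker class and 1 for the variant class (n = 2 each, adjusted p = 1 over the 9 class comparisons). Between the mutants the same exact test gave p = 0.667 for all 3 classes. The linker difference in homozygous against wild-type was 0.19 on the log2 scale, with 0.25 within replicate 1 and 0.14 within replicate 2. Its range was 0.07 to 0.34 with each library left out. The core difference in the same comparison turned from -0.07 to 0.15 without wild-type replicate 2 and to 0.06 without homozygous replicate 1. Core counts per 1000 variant counts were 9.68 and 12.8 in wild-type, 10.4 and 11.7 in hemizygous and 9.98 and 11.2 in homozygous libraries, which overlap.

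**Figure D5:**
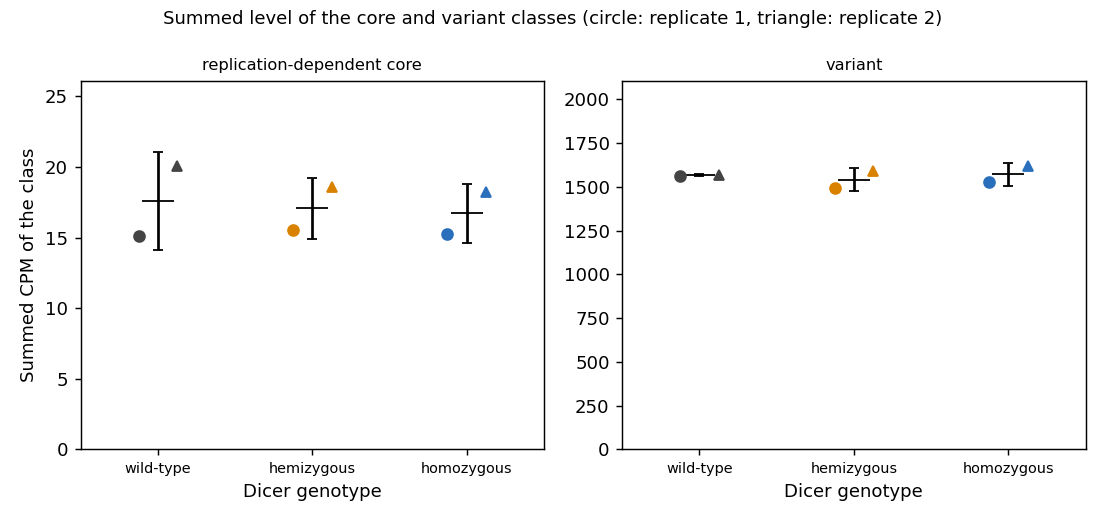
Summed CPM of the 10 core and 8 variant genes by Dicer genotype, each panel from 0. Points are libraries (circle replicate 1, triangle replicate 2) and bars the mean and SD of 2 libraries; core sums lie between 15.1 and 20.1 CPM, and replicate 1 is below replicate 2 in every pair.

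The genes that make and place histones gave no call either. Of the list for histone pre-mRNA processing 22 of 24 genes had a row, of the chaperones and exchange factors 24 of 26, and of the S phase list 20 of 20. By edgeR 0 of these passed in either direction in any comparison, beside 0% of all genes, and 0 had an unadjusted p under 0.05. With the replicate block, TYMS and CHAF1B in homozygous against wild-type and CENPA, SNRPB and CDC6 between the mutants had one, where 12.0% and 8.20% of all genes did. SLBP, which binds the stem-loop of replication-dependent messages, stood at 51.6 and 49.2 CPM in wild-type, 50.3 and 44.2 in hemizygous and 48.9 and 49.2 in homozygous libraries. Its log2 fold changes were -0.09 (SE 0.13), -0.04 (SE 0.13) and 0.05 (SE 0.13) in the 3 comparisons. NPAT, which activates transcription of the clustered genes in S phase, stood at 34.2 and 29.7, 44.8 and 29.8, and 36.8 and 26.8 CPM, with replicate 1 the higher in each genotype. Its log2 fold changes were 0.22 (SE 0.24), -0.01 (SE 0.24) and -0.23 (SE 0.24).

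The median log2 fold change of the processing list was 0.01 in hemizygous and -0.00 in homozygous against wild-type, that of the chaperones 0.04 and 0.01, and that of the S phase list -0.00 and -0.12. In homozygous against wild-type cells 15 of the 20 S phase genes were below 0, and 5 of 20 had homozygous libraries wholly below wild-type, where 13.6% of all genes had. Examples by smallest p are TYMS (thymidylate synthase) at -0.25 (SE 0.17) in homozygous against wild-type, and CCNE2 (cyclin E2) at 0.48 (SE 0.27) in hemizygous against wild-type. With each library left out in turn TYMS ranged from -0.39 to -0.07 and CCNE2 from 0.18 to 0.89, the smaller values being without wild-type replicate 1 and replicate 2, respectively. Among chaperones CHAF1B, a subunit of the assembly factor CAF-1, stood at -0.24 (SE 0.13) and NASP, a chaperone of H3-H4 and of H1, at 0.20 (SE 0.14) in homozygous against wild-type. CENPA, the centromeric H3 variant, stood at 0.24 (SE 0.14) in homozygous against hemizygous cells. In the processing list LSM11, a protein of the U7 particle, stood at -0.21 (SE 0.14) and SNRPE, an Sm protein, at 0.20 (SE 0.14) in homozygous against wild-type, and SNRPB at 0.27 (SE 0.20) between mutants. Each had an adjusted p of 0.999 or more by edgeR's quasi-likelihood test.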

How the data were processed

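The authors deposited a table of counts, which are whole numbers for each gene and library and carry no normalization, from libraries labelled Ago2 iCLIP. Per the submitters' processing notes the build was hg38. Not given in the sources used here are the aligner, the counting tool, its annotation, and whether strand or molecular identifiers were used. Columns were tied to samples by their descriptions, with 0 left unused. Counts were scaled by TMM factors, filtered with filterByExpr (all 16199 rows kept) and tested with edgeR 4.0.16 (R 4.3.3) quasi-likelihood F tests on 3 genotype means over all 6 libraries, adjusted by Benjamini-Hochberg over all genes, at 0.05. Standard errors were taken from the fold change and F. Class sums and ratios were compared by exact permutation (2 against 2 libraries). The fit was tested on simulated counts.

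Replicate numbers were taken to pair libraries, since deviations from genotype means correlated across genes for each pair of genotypes (r = 0.741, 0.357 and 0.476). The labels do not say what a number stands for. Members and lists were chosen with earlier results of these data known. Named genes were the top 5 by mean CPM per family, the 3 with the smallest p per direction and comparison, SLBP and NPAT, and 3 per list by smallest p; members whose groups do not overlap were named in addition. Alternatives were scaling by library size, upper quartile or RLE, other filters, DESeq2 1.42.0, limma-voom (limma 3.58.1), only the genotypes compared, the replicate block and each library left out. Counting error is 0.763% to 25.8% for the members' lowest libraries. Motifs and upstream sequences are from RefSeq GRCh38.p14. Values of 1 linker gene and of 1 S phase gene are not reported here, although both stayed in the fit and in counts over their lists.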

Additional observations from a re-analysis of the deposited data

How the results depend on the processing

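No histone gene was called under any alternative run, with 0 members in each of the 3 comparisons under scaling by library size, upper quartile or RLE, without a filter or with a filter of 20 counts in 2 libraries, DESeq2, limma-voom, only the genotypes compared, the replicate block (0 members) and each library left out (0 to 0). Over 48 results and 369 values under alternatives other than left-out libraries, 368 kept their direction and side of the threshold. The exception was NPAT in homozygous against wild-type, at 0.0174 with upper-quartile factors. The settings without a filter and with 20 counts in 2 libraries returned the main values exactly, so their part of this tally is no check. With the replicate block the class differences keep their size by construction and their exact p cannot go below 0.5; they were -0.04, -0.07 and -0.03 for core, 0.05, 0.19 and 0.15 for linker and -0.03, 0.00 and 0.03 for variant genes. Of 264 values with a library left out, 21 turned direction. The log2 differences of core sums then ranged from -0.23 to 0.18 (hemizygous against wild-type), -0.26 to 0.15 (homozygous against wild-type) and -0.16 to 0.10 (between mutants). Linker sums ranged from -0.0832 to 0.19 in hemizygous against wild-type. Variant sums ranged from -0.0694 to 0.0273, -0.0392 to 0.0466 and -0.0139 to 0.0731. Single genes that turned were H2AC6 (-0.0192 to 0.22) in hemizygous against wild-type, H1-10 (-0.0442 to 0.50) in homozygous against wild-type, SLBP in homozygous against wild-type (-0.0589 to 0.00361) and between mutants (-0.0381 to 0.15), and NPAT (-0.10 to 0.49, -0.25 to 0.20 and -0.49 to 0.10). A genotype left with 1 library takes its spread from the others. The cause was not tested. The H2AZ1 to H2AZ2 difference, left out likewise in an alternative added after seeing the data, ranged from -0.26 to -0.0983 (hemizygous against wild-type), -0.34 to -0.24 (homozygous against wild-type) and -0.19 to -0.0345 (between mutants). This ratio was picked for groups that do not overlap, so its difference could not turn with a library left out. Without turning, H2AZ1 ranged from -0.27 to -0.08 and H1-3 from -0.98 to -0.44 in homozygous against wild-type, and H2BC4 from -0.52 to -0.06, H3-3A from 0.02 to 0.30 and SNRPB from 0.02 to 0.56 between mutants. Depth limits the rarest rows, with 15 counts in the lowest library of H4C9 and 18 in that of H1-3.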
